A study of Mus musculus with 41 samples.

Results

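Wild-type (WT) mouse embryonic stem cells of the R1 line were compared after 4 h in α-amanitin and before it, at 0 h. The comparison held 8 of the 41 samples of the series, 4 libraries at each time. They were chosen by their labels alone, and genes were joined between times by their Ensembl identifiers. Before harvest the cells of both groups had spent 4 days in 1 µM retinoic acid, in medium without the cytokine LIF, and the treated group then received α-amanitin at 2 µg/ml for 4 h. The labels tag the 0 h cells with the agent as well, at a time of 0 h, so no vehicle group is described. All 8 libraries were made with a stranded mRNA kit. The labels do not say whether replicates are separate cultures, so p-values measure the spread between these libraries, which may be technical. The WT libraries at 2 h and 8 h, and those of Caprin1 knockout clone 2 at 0 h and 4 h (2 libraries each), are used below where a value at 4 h needs a neighbour.

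α-Amanitin is a mushroom peptide that binds RNA polymerase II and stops it from moving along DNA, and it also leads to loss of the polymerase's large subunit. It enters cells slowly. Once messenger RNA synthesis has stopped, short-lived transcripts shrink as a share of all messenger RNA and long-lived ones grow as a share, even when no transcript becomes more abundant in the cell. Retinoic acid acts through nuclear receptors that switch on its own degrading enzymes and the Hox genes of the embryonic body axis. Immediate early genes such as Fos and Egr1 are switched on within minutes of a stimulus without new protein synthesis, and most of their messages decay quickly. All levels below are CPM, read counts divided by the library's total and scaled with TMM factors, so they are shares of a library: they do not show whether the total RNA per cell changed, and in such bulk samples fewer cells of a type and less RNA per cell cannot be told apart. The extent of the transcription block was not measured in these files.

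Markers of pluripotent cells were present in every library, and so were those of endoderm, of which the laminin gene Lama1 held the most. The summed level of 5 pluripotency markers (Pou5f1, Nanog, Sox2, Zfp42 and Sall4) ran from 489 to 543 CPM at 0 h and from 426 to 489 CPM at 4 h. Nanog, which is set aside below for a namesake pseudogene, gave on average 63.8 CPM of the sum at 0 h and 41.6 CPM at 4 h. The 6 markers of primitive and parietal endoderm summed to between 3724 and 4155 CPM at 0 h and between 3400.2 and 4289 CPM at 4 h. The 7 markers of fibroblast feeders summed to between 911 and 1409 CPM at 0 h and between 979 and 1073 CPM at 4 h, of which Col1a1 and Col3a1 held the most, with the defining marker Lum near 0. The 5 neuroectoderm markers summed to between 40.3 and 51.5 CPM at 0 h and between 35.7 and 41.6 CPM at 4 h. Those of blood and endothelium stayed under 20 CPM in sum at both times, with the haemoglobin gene Hba-a1 at 0 in all 8 libraries. Depth ran from 3953468 to 22684394 counts per library at 0 h and from 3460172 to 9412958 at 4 h. At 0 h, replicates 1 and 2 stood closer to each other (a root mean square log2 difference of 0.226 over 10785 genes), as did 3 and 4 (0.133), than libraries across these pairs (0.329 to 0.361). The 4 h libraries differed from each other by 0.187 to 0.267.

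The cytosolic ribosomal protein genes held 2.79% of all counts in WT at 0 h, 2.67% at 2 h, 1.12% at 4 h and 2.42% at 8 h, and the same drop at 4 h alone was seen in knockout clone 2 (2.84%, 2.70%, 0.976% and 2.54%) and in the libraries labelled clone 4, whose Caprin1 message was at the WT level (2.396%, 2.69%, 1.00% and 2.27%). Of 86 such genes tested, 70 were lower at 4 h than at 0 h, by a median of 1.71 on the log2 scale, and the median change from 4 h to 8 h was 1.48. Together with genes that have a namesake pseudogene in the table, 324 genes were set aside, of which 292 were tested and 143 were lower. They stayed in the fit and in the adjustment of p-values, and are left out of the counts that follow. Every 4 h library comes from one table, so time and table cannot be told apart at 4 h.

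Of 13459 genes tested that were not set aside, 5914 (43.9%) differed between 4 h and 0 h at a false discovery rate (FDR) under 0.05, by edgeR's quasi-likelihood test with Benjamini-Hochberg adjustment. Of these, 2948 (21.9%) were higher at 4 h and 2966 (22%) were lower. Changes of at least 2-fold were called in 460 genes that rose (3.42%) and 599 that fell (4.45%). The median log2 change of all genes tested was -0.02. When libraries were scaled by their totals in place of TMM, the median was -0.13 and 34.1% of the calls were higher, against 49.8% in the fit reported here, so that small changes in either direction depend on the scaling. The CPM ranges of the 4 libraries at each time did not overlap in 5553 genes (41.3%). Without the 91 genes that were low at 4 h alone (described below), calls were unevenly spread over expression levels, in quartiles of 3342 genes each: in the quartile of genes with the highest mean CPM, 39.3% rose and 10.2% fell, and in the lowest quartile 11.2% rose and 25.9% fell. The highest quartile began at 74.4 CPM. The shares of a list of abundant genes are therefore also to be set beside those of that quartile.

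**Figure D1:**
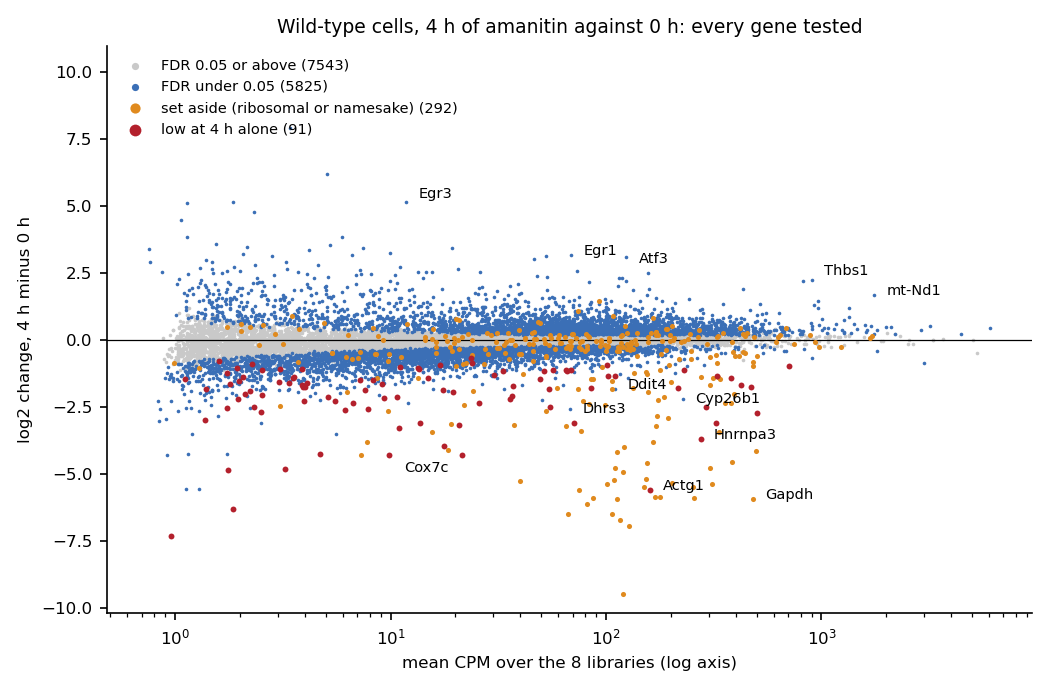
Log2 change from 0 h to 4 h in WT cells (vertical axis) against the mean CPM over the 8 libraries (horizontal log axis), 1 point per gene tested. Blue points passed an FDR of 0.05, grey points did not, orange points are the 292 genes set aside and red points the 91 others that were low at 4 h alone; most of the largest falls among abundant genes, such as Gapdh and Actg1, belong to the orange and red points.

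Immediate early genes rose. Of 17 tested members of the AP-1 and Egr families and their relatives, 16 rose and 0 fell, with a median log2 change of 1.52 (against -0.02 over all genes), and all 16 had ranges that did not overlap. Over all genes 21.9% rose, and 20.9% were higher with ranges that did not overlap. With 0 lower by edgeR, 0 were lower at an unadjusted p under 0.05 and 0 by DESeq2. The member that was not called was the nuclear receptor gene Nr4a2 (log2 0.08). Egr3, a zinc finger transcription factor (ENSMUSG00000033730.4; GRCm38 chromosome 14, 70077317 to 70082613), was near the limit of detection at 0 h, at 0.726, 0.342, 0.721 and 0.972 CPM in replicates 1 to 4, and stood at 22.4, 22.7, 24.99 and 21.7 CPM at 4 h. Its log2 change was 5.15 (SE 0.201, FDR 2.44e-10). Egr1, a related factor that many growth signals induce (ENSMUSG00000038418.7), went from 17.4, 13.4, 12.3 and 14.02 CPM to 130.3, 114, 135 and 113 CPM, a log2 change of 3.17 (SE 0.113, FDR 9.90e-11). Neither gene was at its highest at 4 h: Egr3 averaged 45.5 CPM at 2 h and 1.22 CPM at 8 h, and Egr1 211 and 11.4 CPM.

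Egr2, the third member of that family to be named here (ENSMUSG00000037868.15), had 0, 0.0856, 0.255 and 0.162 CPM at 0 h, so that its fitted change of 4.77 depends on the prior count, and 4.99, 4.37, 4.25 and 4.57 CPM at 4 h. Fosb, a partner of JUN in the AP-1 dimer (ENSMUSG00000003545.3; chromosome 7, 19302696 to 19310118), had 2.18, 0.984, 1.06 and 1.54 CPM at 0 h and 15.2, 14.8, 11.7 and 12.1 CPM at 4 h (log2 3.43, SE 0.206, FDR 2.67e-08), with 20.7 CPM at 2 h. Fos itself rose less at this time, from 9.07 ± 1.47 to 20.3 ± 2.34 CPM (SD, n = 4 each; log2 1.24, SE 0.135, FDR 9.39e-06), after a mean of 43.3 CPM at 2 h. For Jun, the corresponding values were 152 ± 20.9 and 269 ± 6.95 CPM (log2 0.83, SE 0.0957, FDR 1.46e-05). The 0 h and 4 h libraries did not overlap for any of these 4 genes, which the naming rule required of Fosb.

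Atf3, a stress-induced repressor of the same superfamily (ENSMUSG00000026628.13; chromosome 1, 191170296 to 191183333), differed in its time course. It stood at 27.8, 24.99, 26.9 and 23.6 CPM at 0 h and at 215, 256, 197 and 221 CPM at 4 h, a log2 change of 3.12 (SE 0.0982, FDR 2.54e-11), and its 4 h mean of 222 CPM was above that at 2 h (168 CPM), by a log2 difference of 0.38 (FDR 3.05e-05). At 8 h it had returned to 19.5 CPM. Maff, a small MAF protein without a transactivation domain (ENSMUSG00000042622.14; chromosome 15, 79346621 to 79359078), went from 12.8, 11.7, 9.55 and 9.89 CPM to 95.9, 90.5, 98.3 and 91.8 CPM (log2 3.14, SE 0.107, FDR 6.10e-11), with 82.6 CPM at 2 h and 17.96 CPM at 8 h.

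Other short-lived regulators moved the same way less uniformly. Of 31 tested, 23 rose (74.2%, against 21.9% of all genes), 3 fell (9.68%, against 22%) and 5 were not called, with a median of 0.60. Sgk1, a kinase gene induced by serum and glucocorticoids (ENSMUSG00000019970.15; chromosome 10, 21882184 to 21999903), rose from 22.98, 27.4, 34.4 and 36.2 CPM to 137, 134, 141 and 135 CPM (log2 2.16, SE 0.109, FDR 4.34e-09). Myc, the growth regulator with a very unstable message (ENSMUSG00000022346.15; chromosome 15, 61985341 to 61990361), rose from 76.2, 68.7, 55.8 and 53.5 CPM to 149.96, 142, 143 and 129 CPM, with means of 63.6 CPM at 0 h and 38.2 CPM at 8 h. The survival factor gene Mcl1 and the immediate early gene Ier2 were not called, with 522 and 521 CPM for Mcl1 (FDR 0.977) and 59.95 and 66.3 CPM for Ier2 (FDR 0.357). Socs3, which dampens cytokine signalling, fell from 44.1 ± 6.60 to 17.9 ± 1.13 CPM (log2 -1.28).

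Genes that hold back ERK, the kinase of the growth factor pathway, rose in 10 of 16 cases and fell in 1 (62.5% and 6.25%, against 21.9% and 22% of all genes), with a median of 0.58. The phosphatase genes led this group. Dusp4 went from 46.4 ± 4.58 to 266 ± 10.3 CPM (log2 2.52, SE 0.0888, FDR 8.32e-11) and Dusp5 from 44.2 ± 4.27 to 204 ± 5.88 CPM (log2 2.22, SE 0.0853, FDR 2.19e-10). Dusp5 was as high at 2 h (204 CPM) as at 4 h and fell back to 37.4 CPM at 8 h. Dusp7, which was lower at 4 h, went from 19.8 to 13.95 CPM. Among the Id and Hes repressors, 4 of 10 rose and 2 fell (40% and 20%, the latter near the background). Id4 went from 5.08, 3.34, 5.81 and 4.94 CPM to 22.7, 21.8, 23.1 and 26.2 CPM (log2 2.33, SE 0.155, FDR 7.90e-08), whereas Id3 fell from 222 to 125 CPM (log2 -0.82). With library totals as the scale, 3 of the 10 rose and 3 fell.

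The serum response factor SRF, which switches on several of these genes, binds a DNA element called the CArG box. Its letters were searched on both strands in the 250 bases before each annotated start, in RefSeq's promoter windows of GRCm38.p6. They were found in 1.47% of 32817 windows and, among the 135 named genes with a window, in Actg1, Dusp5 and Egr2. The Dusp5 promoter is shown because it holds a pair of these elements side by side, and the Egr2 site for comparison, both on the plus strand with the CArG boxes in capitals:
Dusp5, chr19:53528995-53529144: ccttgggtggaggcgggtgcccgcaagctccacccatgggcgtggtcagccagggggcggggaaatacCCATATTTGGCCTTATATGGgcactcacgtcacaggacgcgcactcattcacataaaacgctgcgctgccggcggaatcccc
Egr2, chr10:67537484-67537513: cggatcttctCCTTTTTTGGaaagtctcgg
The first Dusp5 element begins 82 bases before the annotated start and the Egr2 element 72 bases before it. The match is of letters alone, and factor binding was not measured.

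Several of the largest rises lay outside these families. Of the largest by the naming rule, 11 are reported. Among them, Nipal1, a magnesium transporter gene (ENSMUSG00000067219.9; chromosome 5, 72647796 to 72671078), had 1.21, 0.599, 0.849 and 1.05 CPM at 0 h and 10.2, 6.69, 9.79 and 11.6 CPM at 4 h (log2 3.55, SE 0.226, FDR 4.80e-08). Sgms2, a sphingomyelin synthase (ENSMUSG00000050931.7; chromosome 3, 131318985 to 131491443), had 2.42, 3.08, 3.35 and 3.81 CPM and 30.8, 33.2, 35.4 and 41.9 CPM (log2 3.44, SE 0.138, FDR 3.61e-10). Both stood higher at 4 h than at the neighbouring times, with Nipal1 at 2.71 CPM at 2 h and 1.81 CPM at 8 h and Sgms2 at 14.97 and 9.84 CPM. The homeobox gene Nkx6-1, a regulator of neural and pancreatic progenitors, followed that course, at 2.02 CPM at 0 h, 5.23 at 2 h, 12.4 at 4 h and 1.92 at 8 h (log2 2.63, SE 0.169, FDR 5.37e-08).

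Ptgs2, the inducible cyclooxygenase, rose from 8.71, 7.44, 12.1 and 11.99 CPM to 73.5, 70.7, 84.8 and 101 CPM (log2 3.03, SE 0.159, FDR 6.09e-09). Bdnf, a neurotrophin whose gene responds to neuronal activity, rose from 4.35, 4.32, 6.83 and 6.73 CPM to 35.4, 30.3, 35.2 and 40.98 CPM (log2 2.66, SE 0.154, FDR 1.79e-08). Plaur, the urokinase receptor, rose from 24.4, 22.1, 19.4 and 18.96 CPM to 129.9, 125, 125 and 123 CPM (log2 2.59, SE 0.0955, FDR 1.38e-10). Every 4 h library lay above every 0 h library for all 11 genes, which the naming rule required. At 8 h Ptgs2 and Plaur were still at 45.3 and 71.5 CPM.

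**Figure D2:**
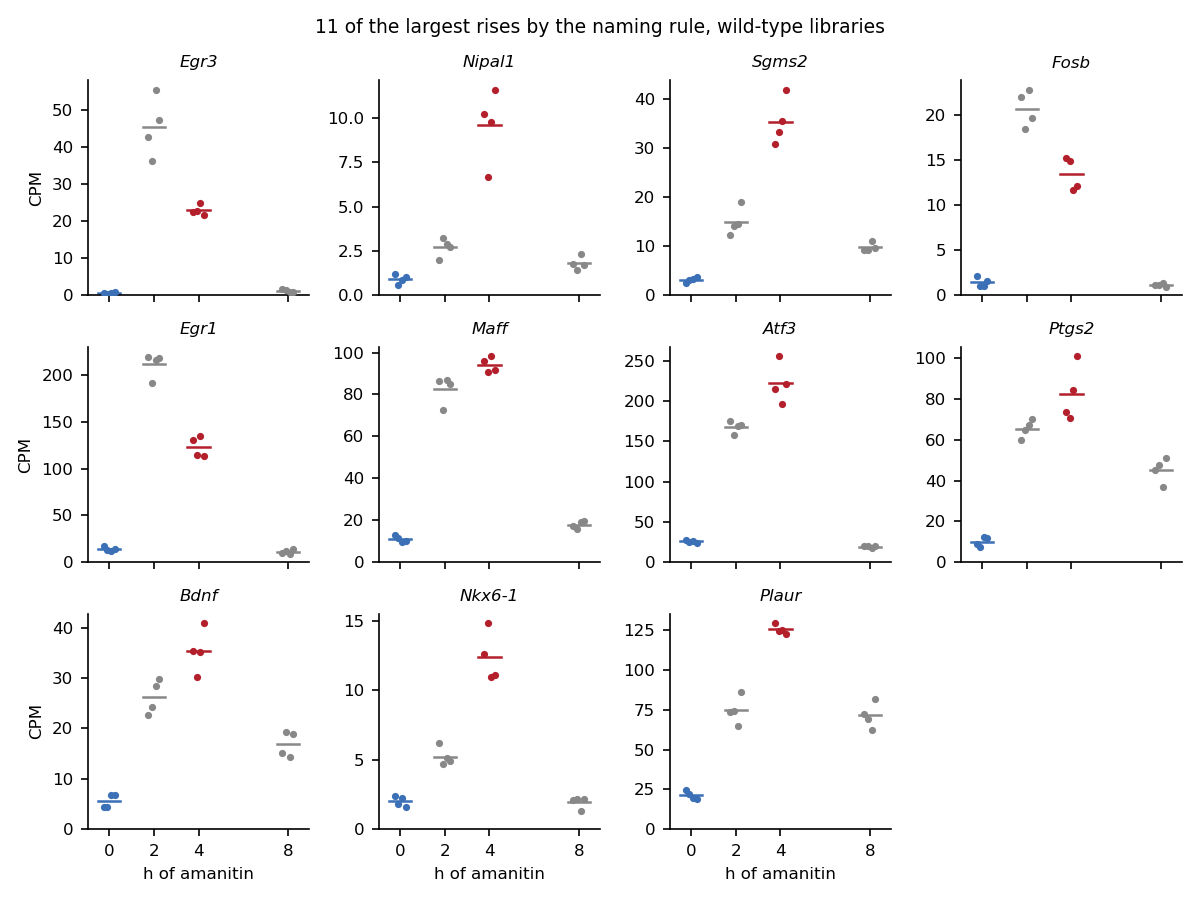
CPM in each WT library (points) with the mean (bar) at 0 h (blue), 2 h (grey), 4 h (red) and 8 h (grey) of α-amanitin for 11 of the largest rises from 0 h to 4 h. Egr3, Fosb and Egr1 are highest at 2 h and the other 8 at 4 h, and all 11 are lower at 8 h than at 4 h.

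Thbs1 and Timp3 encode secreted matrix proteins and were among the abundant messages that rose. Thbs1, the adhesive glycoprotein thrombospondin (ENSMUSG00000040152.8; chromosome 2, 118111876 to 118127133), went from 332, 318, 313 and 288 CPM to 1422, 1367, 1589 and 1587 CPM (log2 2.26, SE 0.0843, FDR 1.57e-10), and Timp3, an inhibitor of matrix proteases, from 77.2, 65.4, 73.6 and 80.2 CPM to 234, 215, 239.7 and 249.9 CPM (log2 1.68, SE 0.0804, FDR 2.58e-09). In the list of collagens and mesenchymal matrix genes 8 of 31 rose (25.8%, against 21.9% of all genes), 0 fell (1 at an unadjusted p under 0.05 by edgeR and 0 by DESeq2), 23 were not called, and the median was 0.03, or -0.08 with 4 genes lower when libraries were scaled by their totals. In the actin list 17 of 35 genes rose and 5 fell (48.6% and 14.3%, against 21.9% and 22% of all genes). Zyx, a focal adhesion protein, rose from 198 ± 36.1 to 501 ± 32.1 CPM (SD, n = 4 each) and Actb from 2641 ± 295 to 3762 ± 74.2 CPM (log2 0.51, SE 0.0897, FDR 4.72e-04), whereas Actg1 was among the genes low at 4 h alone.

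Transcripts of the retinoic acid response were mostly lower. Of 31 tested, 18 were lower at 4 h, 1 was higher and 12 were not called, with a median of -0.37; the background share of lower genes was 22%. Dhrs3, which reduces retinaldehyde to retinol (ENSMUSG00000066026.14; chromosome 4, 144892534 to 144928209), stood at 128, 113, 115 and 111 CPM at 0 h and at 20.7, 19.5, 17.3 and 21.3 CPM at 4 h, a log2 change of -2.56 (SE 0.0958, FDR 1.58e-10). It fell at each step, with 38.96 CPM at 2 h and 4.05 CPM at 8 h. Cyp26b1, a cytochrome that oxidises retinoic acid (ENSMUSG00000063415.12; chromosome 6, 84571414 to 84593908), stood at 396, 379, 368 and 356 CPM at 0 h and at 72.03, 92.3, 79.7 and 80.7 CPM at 4 h (log2 -2.21, SE 0.0874, FDR 2.96e-10), with 155 CPM at 2 h and 16.1 CPM at 8 h.

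Its paralog Cyp26a1 (ENSMUSG00000024987.6; chromosome 19, 37697738 to 37701536) fell less, from 289, 269.7, 300.1 and 313 CPM to 121, 135, 117 and 128 CPM (log2 -1.22, SE 0.0739, FDR 2.73e-08), and averaged 50.98 CPM at 8 h. The third paralog, Cyp26c1, changed by -1.68 on the log2 scale. Rarb, a retinoic acid receptor that the acid itself induces (ENSMUSG00000017491.9; chromosome 14, 16430839 to 17082331), fell from 25.6, 31.1, 26.3 and 24.2 CPM to 12.99, 13.97, 14.8 and 13.7 CPM (log2 -0.96, SE 0.115, FDR 2.16e-05). It averaged 23.3 CPM at 2 h and 2.95 CPM at 8 h. The receptor gene Rarg fell by a log2 change of -1.42 and the binding protein gene Crabp2 by one of -0.35, while Rara (log2 -0.32) was not called. Hoxa5 and Hoxb1 belong to this list and to that of the Hox genes. Skil, a brake on TGF-β signalling, was the 1 member that rose, from 242 to 300.4 CPM, a rise that was not called when libraries were scaled by their totals.

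Receptors for retinoic acid bind direct repeats of a short half-site, and the repeat with a spacer of 5 bases is called DR5. Exact letters of the DR5 consensus were searched on both strands of the same windows. They occurred in 0.0884% of all windows and in 2 named genes, Cyp26a1 and Rarb, which are the sites shown here in capitals, along each gene's own strand (plus for Cyp26a1, minus for Rarb):
Cyp26a1, chr19:37697769-37697798: ttaaagaTGAACTTTGGGTGAACTaatttg
Rarb, chr14:16575507-16575536: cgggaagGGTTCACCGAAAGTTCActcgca
Both sites lie inside the gene spans given above, before annotated starts that are themselves within those spans. In Cyp26a1 the repeat lies on the strand opposite to the one printed. A match of letters is not a bound site, and windows without these letters say nothing about the receptor.

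The Hox genes, which give cells their position along the body axis, fell. Of 28 tested, 25 fell (89.3%, against 22% of all genes), 1 rose and 2 were not called, with a median of -0.99. The median was -1.09 when libraries were scaled by their totals. Hoxc4 stood at 19.8, 20.5, 19.6 and 20.7 CPM at 0 h and at 3.15, 4.07, 4.77 and 3.90 CPM at 4 h (log2 -2.34, SE 0.135, FDR 1.73e-08). Hoxa5 stood at 101, 78.1, 80.8 and 72.6 CPM and then at 19.02, 17.2, 13.5 and 19.4 CPM (log2 -2.25, SE 0.135, FDR 2.73e-08). Hoxb1, the hindbrain gene of the cluster's 3′ end, stood at 28.8, 34.5, 27.5 and 26.3 CPM and then at 7.48, 6.40, 9.66 and 7.13 CPM (log2 -1.91, SE 0.146, FDR 3.34e-07). The groups did not overlap for these 3 genes, which their choice as largest falls required. Hoxa5 had already reached 20.03 CPM at 2 h and moved little afterwards (13.9 CPM at 8 h), whereas Hoxb1 went on falling, from 12.3 CPM at 2 h to 1.70 CPM at 8 h.

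Within the clusters, Hoxa6 changed on the log2 scale by -2.12, Hoxc6 by -1.62 and Hoxb4 by -1.17. Smaller falls were measured for Hoxb2 (-0.49), Hoxd9 (-0.53) and Hoxa10 (-0.54). Hoxd8 (-0.45) and Hoxa2 (-0.01) were not called. Hoxb9, at the other end of its cluster, was the gene that rose, from 48.9, 44.5, 41.6 and 39.7 CPM to 50.2, 48.02, 58.5 and 54.9 CPM (log2 0.30, SE 0.0966, FDR 0.0228), with ranges that overlapped. It was not called when libraries were scaled by their totals, without a filter on low counts (FDR 0.0587), or without replicate 3 or 4 of either time (FDR 0.0585 to 0.0884).

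Among the other large falls, Ddit4, an inhibitor of mTOR that stress and hypoxia induce (ENSMUSG00000020108.4; chromosome 10, 59949675 to 59951770), went from 175, 189.6, 169.8 and 156 CPM to 49.5, 47.1, 46.2 and 49.6 CPM (log2 -1.84, SE 0.0852, FDR 1.80e-09). Bmf, a pro-apoptotic BH3-only protein, went from 49.8, 56.05, 50.4 and 53 CPM to 12.9, 13.97, 16.2 and 15.4 CPM (log2 -1.83, SE 0.1002, FDR 9.85e-09). Ppp1r3c and Ppp1r3b, which target a phosphatase to glycogen, went from 6.29, 10.6, 11.96 and 11.5 CPM to 0.918, 1.75, 0.902 and 0.557 CPM and from 19.6, 25.2, 27.6 and 26.1 CPM to 7.48, 4.66, 7.60 and 7.57 CPM. The log2 change of Ppp1r3c was -3.51 (SE 0.274, FDR 4.02e-07) and that of Ppp1r3b -1.81 (SE 0.143, FDR 4.47e-07). Thap3, Wdr86 and Zfp759 complete the 12, with log2 changes of -1.96, -2.05 and -1.79. From 4 h to 8 h, 4 of the 12 were called lower still (Dhrs3, Cyp26b1, Hoxb1 and Hoxa5), 7 were called higher again and Hoxc4 was not called. The calls of Hoxa5 and Wdr86 in that step were lost without some single libraries. Of the 7, Ddit4 stood at 90.7 CPM at 8 h, Ppp1r3b at 19.9 CPM after 6.83 CPM at 4 h, and Zfp759 at 9.01 CPM after 2.77 CPM.

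**Figure D3:**
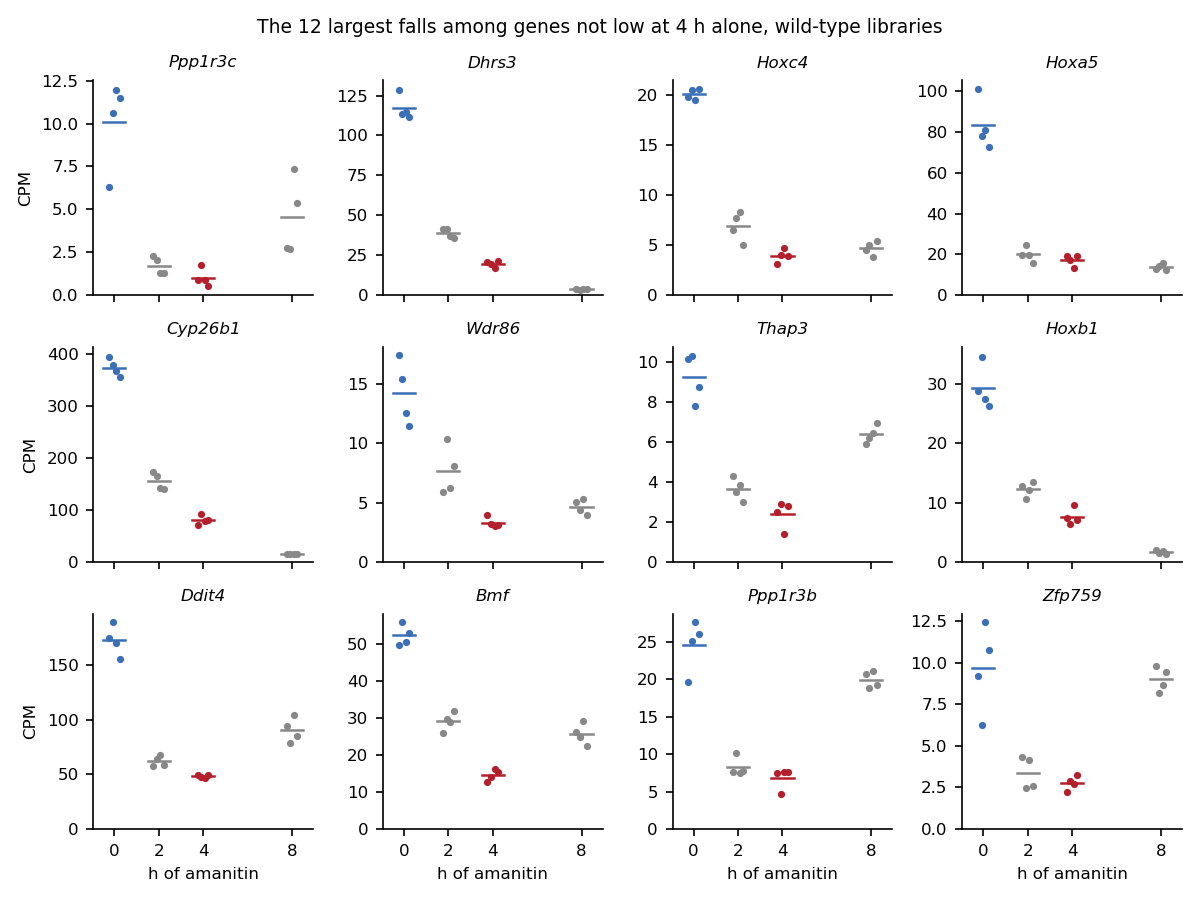
CPM in each WT library (points) with the mean (bar) at 0 h (blue), 2 h (grey), 4 h (red) and 8 h (grey) for the 12 largest falls among genes that were not low at 4 h alone. In Dhrs3, Cyp26b1, Hoxb1 and Hoxa5 the mean is lowest at 8 h, whereas in the other 8 it is lowest at 4 h.

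Of the core pluripotency factors, Pou5f1 and Sox2 were not called. Pou5f1 had 82.99 ± 13.7 CPM at 0 h and 74.3 ± 8.07 CPM at 4 h (SD, n = 4 each; FDR 0.260 by edgeR), and Sox2 75.4 ± 7.76 and 69.7 ± 6.43 CPM (FDR 0.439). Nanog is one of the genes set aside for a namesake pseudogene, so no fall is read from its values: it averaged 63.8 CPM at 0 h, 51.8 at 2 h, 41.6 at 4 h and 58.5 at 8 h. Tet1, a DNA demethylase of stem cells, fell from 66.00 ± 6.37 to 31.7 ± 3.56 CPM. Klf4 rose from 100.4, 86.9, 81.2 and 86.3 CPM to 182, 210.4, 174 and 200.2 CPM (log2 1.12, SE 0.0906, FDR 5.75e-07), and Fgf5, a marker of the primed state, from 1.08 to 4.08 CPM. Over the 33 genes of the list that were tested and not set aside, 5 rose and 10 fell (15.2% and 30.3%, against 21.9% and 22% of all genes).

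Lineage lists were set beside the 21.9% of all genes that rose and the 22% that fell. Of 16 tested genes of the primitive streak and mesoderm, 5 rose and 9 fell (31.2% and 56.2%), with a median of -0.43. The cardiac and endodermal factor Gata5 fell from 8.71, 6.16, 4.75 and 4.38 CPM to 1.71, 1.16, 1.67 and 1.22 CPM, and the VEGF receptor Kdr rose from 3.87, 7.27, 8.36 and 7.37 CPM to 20.99, 17.2, 18.4 and 19.3 CPM. Of 27 neuroectoderm genes 6 rose and 5 fell (22.2% and 18.5%, near the background): Sox21 went from 3.96 to 17.4 CPM (log2 2.14) and the eye and forebrain gene Pax6 from 14.2 to 6.81 CPM (log2 -1.09). Of 25 endoderm genes 6 rose and 6 fell (24% each, near the background, and 4 and 7 genes with library totals as the scale), with Foxa2 (log2 1.34) highest. In the trophoblast list 5 of 13 rose and 2 fell, and in the 2-cell-like list 3 of 12 rose and 0 fell by edgeR (0 at an unadjusted p under 0.05 and 0 by DESeq2). The feeder list had 7 of 17 higher and 1 lower, with Tagln at 23.2 CPM at 0 h and 55.4 CPM at 4 h, while the summed feeder markers given above overlapped between the groups. The blood list had 1 of 6 higher and 1 lower. Of 33 imprinted genes 9 rose and 6 fell, or 5 and 8 with library totals as the scale, with Magel2 at 4.28 and 16.7 CPM.

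α-Amanitin targets the transcription machinery. Polr2a, the subunit that the toxin binds, had 891, 891, 769 and 800.1 CPM at 0 h and 758, 875, 900.0 and 826 CPM at 4 h (log2 0.01, SE 0.0856, FDR 0.963). Of 36 genes of RNA polymerase II, the elongation kinase P-TEFb and its 7SK inhibitor complex, 12 rose and 2 fell (33.3% and 5.56%, against 21.9% and 22% of all genes), and 22 were not called. With library totals as the scale, 10 of the 36 rose and 5 fell. Their median level was 78.6 CPM, in the highest quartile of expression, where 39.3% of genes rose and 10.2% fell. Cdk12, an elongation kinase, rose from 135 ± 5.84 to 263 ± 8.89 CPM (log2 0.97, SE 0.0692, FDR 1.63e-07), and the elongation factor Ell2 from 27.1 ± 5.85 to 47.3 ± 4.32 CPM. Hexim1, an inhibitor of P-TEFb, had 117 ± 6.90 and 115 ± 2.48 CPM (FDR 0.847), whereas Hexim2 fell from 7.26, 8.30, 7.00 and 7.78 CPM to 3.80, 4.66, 3.35 and 3.01 CPM (log2 -1.09, SE 0.165, FDR 1.52e-04). Among splicing factors of the SR family and their CLK kinases 17 of 30 rose and 3 fell, or 14 and 6 with library totals as the scale. Ccnl1, a cyclin of the splicing kinases, rose from 55.7 ± 8.66 to 145 ± 3.52 CPM, Dyrk1a changed by 1.04, Clk4 by 0.97 and Clk2, which fell, by -0.34.

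Factors that degrade RNA were described by pathway, beside the 21.9% of all genes that rose and the 22% that fell. Of 16 genes of nonsense-mediated decay 10 rose and 1 fell (62.5% and 6.25%), with a median of 0.33: Upf3a went from 42.2 ± 3.19 to 67.5 ± 2.99 CPM, while Upf3b fell from 51.2 to 36.6 CPM. Scaling by library totals left 6 higher and 2 lower. Of 19 deadenylase genes 7 rose and 0 fell by edgeR (0 at an unadjusted p under 0.05 and 0 by DESeq2). Their median level was 82.8 CPM, in the highest quartile of expression, where 39.3% of genes rose and 10.2% fell. The scaffold of the CCR4-NOT deadenylase, Cnot1, had 688 ± 47.3 and 670.2 ± 38.1 CPM (FDR 0.747), and the catalytic paralog Cnot6l rose from 48.95 to 76.7 CPM. Of 24 decapping and 5′ decay genes 6 rose and 5 fell (25% and 20.8%, near the background), or 3 and 7 with library totals as the scale, and 2 of the 5 (Lsm5 and Lsm7) were low at 4 h alone. The 5′ exonuclease Xrn1 had 106 ± 13.2 and 102 ± 8.24 CPM (FDR 0.684). Of 18 exosome genes 4 rose and 3 fell (22.2% and 16.7%), or 3 and 4 with library totals as the scale, with the nuclease Dis3 at 126 and 173 CPM.

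CAPRIN1 is a cytoplasmic RNA-binding protein of stress granules. Its message had 879, 792, 1005 and 1024 CPM at 0 h and 967, 992, 1005 and 1131 CPM at 4 h in WT (log2 0.15, SE 0.0864, FDR 0.168), with ranges that overlapped. Its partner G3bp1 had 439.7 ± 21.1 and 416 ± 10.5 CPM (FDR 0.373). Of 36 stress granule genes 12 rose and 4 fell (33.3% and 11.1%, against 21.9% and 22% of all genes). Of the 4, 1 was Hnrnpa1, which was low at 4 h alone. The RNA helicase Ddx3x went from 749 ± 163 to 1272 ± 132 CPM and Nufip2 from 123 ± 21.01 to 235 ± 17.9 CPM. With library totals as the scale, 9 of the 36 rose and 5 fell. Their median level was 288 CPM, in the highest quartile of expression, where 39.3% of genes rose and 10.2% fell.

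All 7 tested mitochondrially encoded messages rose, with a median of 1.02 and 0 lower (0 at an unadjusted p under 0.05 by edgeR and 0 by DESeq2), and 5 of the 7 did so with library totals as the scale. These genes are transcribed by a polymerase of their own inside the organelle. mt-Nd1, a subunit of complex I (ENSMUSG00000064341.1), had 715, 429, 1012 and 1159.5 CPM at 0 h and 2666, 2698, 2535 and 2808 CPM at 4 h (log2 1.70, SE 0.214, FDR 3.20e-05), and mt-Nd2 had 485, 248, 632 and 769 CPM and 1274, 1362, 1236 and 1395 CPM. The groups did not overlap, but the 0 h libraries were widely spread, with replicates 1 and 2 below 3 and 4, the same pairs that stood apart over all genes; the part of that split in this result was not tested. The nuclear-encoded subunits of oxidative phosphorylation had 7 of 68 higher and 15 lower (10.3% and 22.1%, against 21.9% and 22% of all genes). With library totals as the scale, 2 were higher and 21 lower. Of the 15, 6 were low at 4 h alone. Without those 6 the median of the others was 0.01.

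Among metabolic genes, 13 of 24 of the glycolysis and hypoxia list fell (54.2%, against 22% of all genes) and 2 rose (8.33%, against 21.9%), with a median of -0.26. Ankrd37, a hypoxia target, went from 5.23 to 1.49 CPM, and the glycolytic enzyme gene Eno1, 1 of the 13, was low at 4 h alone (725 CPM at 0 h, 703 at 2 h, 216 at 4 h and 491 at 8 h). Hif1a itself rose from 128 to 216 CPM. Of 25 cholesterol genes 10 rose and 3 fell (40% and 12%). The demethylase gene Msmo1 went from 33.3 ± 7.88 to 69.3 ± 6.96 CPM.

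Stress and growth lists were set beside the same background of 21.9% higher and 22% lower. In the integrated stress response 9 of 29 rose and 8 fell (31% and 27.6%), or 7 and 10 with library totals as the scale: Atf4, its central factor, went from 110.3, 126, 118 and 118 CPM to 279, 256, 270.2 and 260.0 CPM (log2 1.17, SE 0.0711, FDR 2.84e-08), while its target Trib3 changed by -1.39. Of 26 p53 targets 10 rose and 5 fell (38.5% and 19.2%), or 8 and 8 with library totals as the scale, with Plk2 at 291 ± 15.7 and 742 ± 38.3 CPM, Mdm2, the ligase that degrades p53, at 329 ± 21.97 and 486 ± 28.9 CPM (log2 0.56, SE 0.0730, FDR 4.02e-05) and the cell cycle inhibitor Cdkn1a at 208 ± 11.5 and 333 ± 8.57 CPM (log2 0.68, SE 0.0728, FDR 7.71e-06). Of 35 cyclins, kinases and mitotic genes 5 rose and 14 fell (14.3% and 40%), 1 of them low at 4 h alone, or 3 and 16 with library totals as the scale. Of 27 replication genes 1 rose and 6 fell (3.7% and 22.2%), or 1 and 11 with library totals as the scale. Chaperones had 9 of 27 higher and 4 lower, 3 of these low at 4 h alone, but 2 higher and 5 lower with library totals as the scale. The proteasome list had 11 of 28 higher and 3 lower, but with library totals as the scale the split was 3 higher and 3 lower. The p53, chaperone and proteasome lists had median levels of 120, 371 and 160 CPM. These levels lie in the highest quartile of expression, where 39.3% of genes rose and 10.2% fell. In the interferon list 1 of 17 rose and 4 fell (5.88% and 23.5%), among them Stat2 (40.3 and 12.9 CPM). Of 39 translation factors 7 rose and 12 fell, of which 6 were low at 4 h alone. The remaining lists were tubulins (2 of 13 higher, 3 lower), DNA methylation (1 of 13 higher, 4 lower) and snoRNA hosts and long non-coding RNAs (8 of 26 higher, 2 lower, with Snhg17 at 23.6 and 46.01 CPM). The linker histone H1f0 was the 1 histone gene tested, at 254 and 125 CPM.

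The family of numbered zinc finger proteins, many of them KRAB repressors, had more members lower than higher. Of 331 tested, 119 fell (36%, against 22% of all genes), 45 rose (13.6%, against 21.9%) and 167 were not called, with a median of -0.32. Their median level of 15.3 CPM lay below the 26.3 CPM of all genes tested, where falls were more common. It lay in the next-lowest quartile of expression (7.16 to 26.4 CPM), where 31.2% of genes fell and 13.2% rose. Zfp493 went from 4.85 to 1.21 CPM and Zfp174 from 3.89 to 1.08 CPM, while Zfp335 rose from 28.8 to 64.4 CPM.

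The authors' deposited lists of gene symbols from the CAPRIN1 immunoprecipitation, named CNT vs RA and 2I vs RA, carry no values and no direction. Of 2007 tested genes of the CNT vs RA list 743 rose (37%) and 263 fell (13.1%), with a median log2 change of 0.13. Of 2236 of the 2I vs RA list 679 rose (30.4%) and 369 fell (16.5%), with a median of 0.06. The background was 21.9% and 22%, but the listed genes were abundant, with median levels of 114 and 96.5 CPM, and in the highest quartile of expression given above 39.3% of genes rose. With library totals as the scale, 525 rose and 394 fell in the CNT vs RA list, and 475 rose and 550 fell in the 2I vs RA list. Which of the counts is larger in the second list therefore depends on the scaling. The background moves with it, to 2131 higher and 4116 lower over all genes with library totals.

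**Figure D4:**
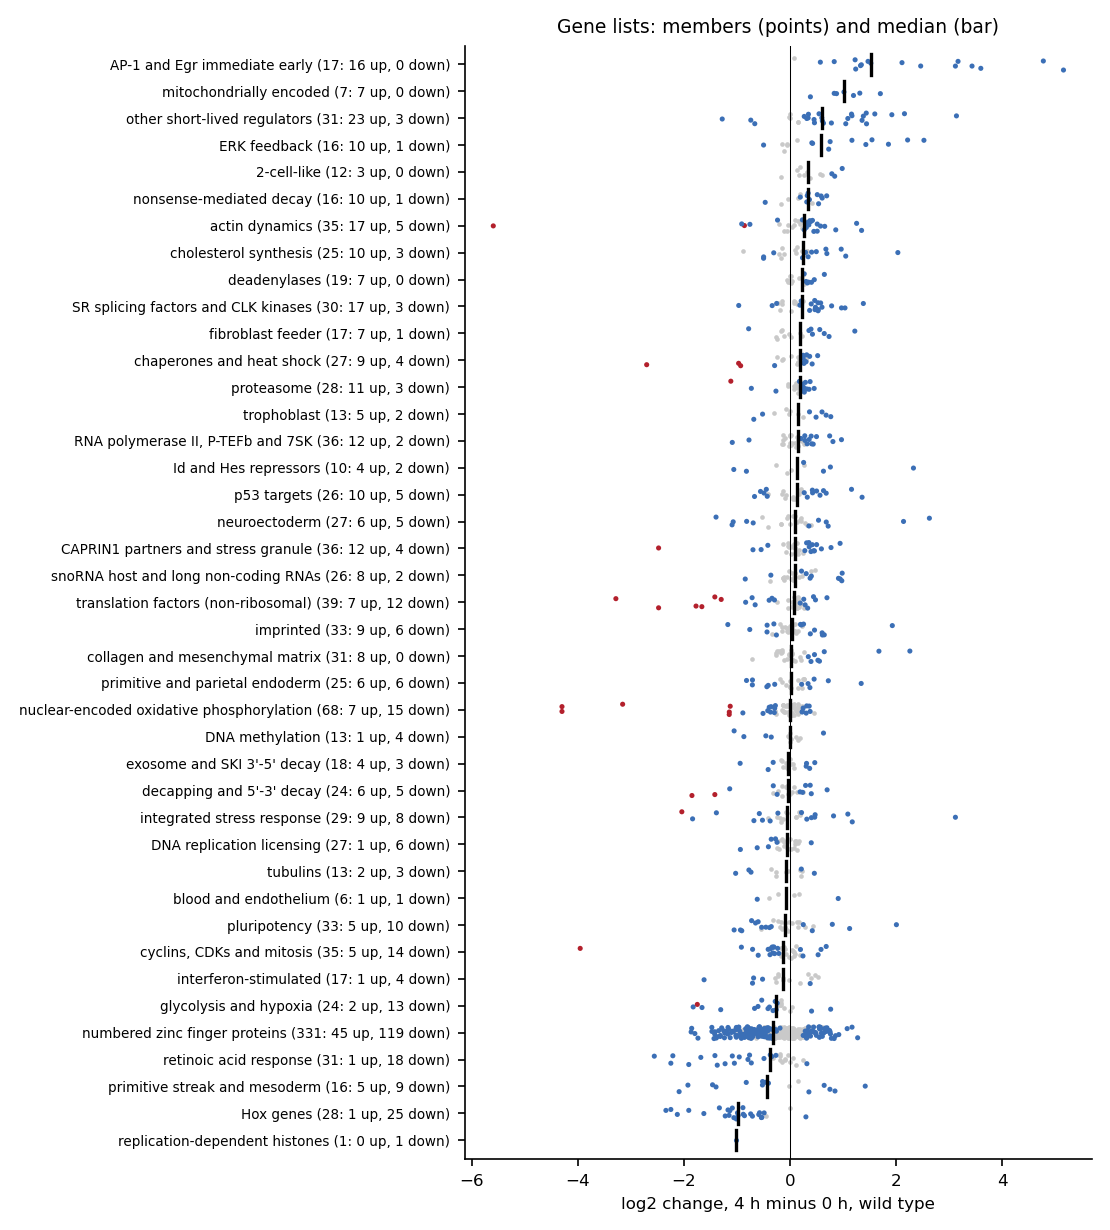
Log2 change from 0 h to 4 h of each tested member (points) of 41 gene lists, with the list's median as a black bar and the numbers tested, higher and lower in the label. Blue points passed an FDR of 0.05, red ones did so and were low at 4 h alone, grey ones did not pass; immediate early genes lie to the right and Hox genes to the left.

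Besides the genes set aside, 91 genes were called at least 2-fold lower at 4 h than at 2 h and at least 2-fold higher at 8 h than at 4 h, and 89 of them were called lower at 4 h than at 0 h. This class was defined after the data were seen. It holds 31 predicted genes or pseudogenes and 11 of the 12 largest falls by the naming rule (Ppp1r3c is the other). The cytoplasmic actin Actg1 (ENSMUSG00000062825.15; chromosome 11, 120345687 to 120348495) had 343, 358, 307 and 249.7 CPM at 0 h and 7.61, 8.44, 6.44 and 4.57 CPM at 4 h (log2 -5.59, SE 0.176, FDR 2.54e-11), but 453, 399, 388 and 446 CPM at 2 h and 376, 410.1, 413 and 421 CPM at 8 h. The dip was also seen in knockout clone 2, at 5.24 and 2.78 CPM at 4 h, and in the libraries labelled clone 4, at 4.50 and 3.56 CPM. The chaperone Hspa8 stood at 869, 904, 133 and 829.7 CPM over the 4 times, and the splicing factor Hnrnpa3 at 513, 648, 39.4 and 553 CPM. Gapdh, a glycolytic enzyme that was set aside for its namesake pseudogenes, stood at 943, 971, 15.5 and 751 CPM.

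Of the other named members of the class, 8 are among the largest falls by the naming rule: the respiratory chain genes Cox7c, Atp5g1 and Atp5g2, the cell cycle gene Cks2, the initiation factor Eif3j1, the chromatin protein Hmgb2, the methyl cycle enzyme Ahcy and the isomerase Ppia. They had log2 changes from 0 h to 4 h of -4.30, -3.16, -4.30, -3.96, -3.28, -3.10, -3.10 and -3.10, in that order. The list members Hnrnpa1, Slc7a11, Lsm5, Lsm7, Eno1, Psma3 and Hsp90aa1 also belong to the class. In the libraries labelled clone 4, Slc7a11 did not dip, at 5.74 CPM at 0 h and 5.43 and 5.79 CPM at 4 h. Many genes of the class are known for near-identical processed copies in the mouse genome, but such copies were not counted here. How reads with several matches were counted is not given in the sources used here, and whether this bears on the dip was not tested. The values of the class at 4 h are uncertain. Of the 599 genes that fell by at least 2-fold, 83 belong to the class and 516 do not. The opposite course, high at 4 h alone, was found in 48 genes, 34 of them predicted genes or pseudogenes, and of the named genes Sgms2, Nipal1 and Nkx6-1 had it.

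**Figure D5:**
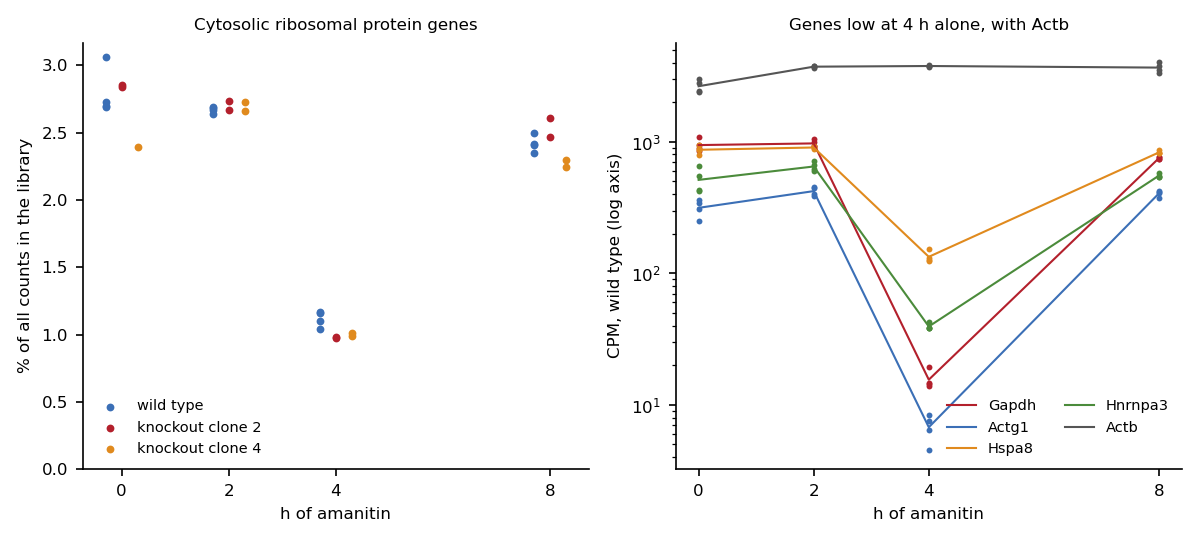
Left, the share of all counts held by cytosolic ribosomal protein genes in each library at each time, for WT (blue), knockout clone 2 (red) and the libraries labelled clone 4 (orange); right, CPM of single genes in the WT libraries on a log axis, with lines through the means. On the left every library at 4 h lies between 0.974% and 1.17%, and Gapdh, Actg1, Hspa8 and Hnrnpa3 drop at 4 h alone while Actb does not.

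The 4 h libraries were then set beside the neighbouring times. Against 2 h, 3297 of 12930 genes were called (25.5%), 1765 higher (13.7%) and 1532 lower (11.8%), and changes of at least 2-fold were called in 73 (0.565%) and 143 (1.11%). From 4 h to 8 h, 7307 of 13069 genes were called (55.9%), 3619 higher (27.7%) and 3688 lower (28.2%), with changes of at least 2-fold in 496 (3.8%) and 350 (2.68%). These fits share the 4 h libraries with the comparison of 4 h and 0 h, so the values are given side by side and no agreement is read from them. Egr1 changed by -0.79 (FDR 8.56e-12) from 2 h to 4 h and by -3.41 (FDR 1.12e-19) from 4 h to 8 h, and Egr3 by -1.0 (FDR 8.11e-09) and -4.22 (FDR 9.20e-19). From 4 h to 8 h Atf3 changed by -3.48 (FDR 2.03e-25). Cyp26b1 changed by -0.97 (FDR 7.16e-12) from 2 h to 4 h and by -2.29 (FDR 5.43e-20) from 4 h to 8 h, and Dhrs3 by -0.996 (FDR 2.65e-10) and -2.26 (FDR 7.53e-15). Hoxc4 changed by -0.81 (FDR 0.00174) from 2 h to 4 h and was not called from 4 h to 8 h (0.28, FDR 0.199).

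Whether the change over 4 h differed in cells with little Caprin1 message was tested as an interaction on 12 libraries. The message stood at 107 and 106 CPM in knockout clone 2 at 0 h and at 196 and 190.0 CPM at 4 h, far under the WT libraries. It stood at 1075 CPM in the 1 library at 0 h labelled knockout clone 4 and at 1201 and 1223 CPM in the pair at 4 h. Clone 4 entered no test here because of its single library at 0 h. The change differed between clone 2 and WT in 315 of 14603 genes (2.16%), of which 124 had a higher value in clone 2 (0.849%) and 191 a lower one (1.31%). Differences of at least 2-fold were called in 29 (0.199%) and 94 genes (0.644%). The call count rests on few libraries: it was 127 and 135 without clone 2 replicate 1 or 2 at 0 h, 137 and 114 without either at 4 h, 621 without WT replicate 2 at 0 h, and 202 and 206 without WT replicate 1 or 3 at 4 h. Of 24 differences called among the named genes, 14 were called in every run that left out 1 library. Clone 2 is 1 clone, so a difference of the clone and one of the knockout cannot be told apart.

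In the AP-1 and Egr list the change differed in 7 of 17 genes, and was lower in clone 2 in 5 of them. Over all genes tested the shares were 2.16% and 1.31%. The WT libraries enter both the choice of the named genes and this test. Maff stood at 15.8 and 16.8 CPM at 0 h and 24.9 and 26.9 CPM at 4 h in clone 2, a change lower than in WT by a log2 difference of -2.49 (SE 0.157, FDR 4.79e-07); in clone 4 it stood at 18.1 CPM and then at 74.5 and 60.7 CPM. Egr1 stood at 7.16 and 7.90 CPM and then 26.3 and 24.2 CPM in clone 2 (difference -1.44, SE 0.182, FDR 3.37e-04). Dusp5 stood at 18.04 and 16.7 CPM and then 32.4 and 35.5 CPM (difference -1.27, SE 0.137, FDR 8.96e-05), and at 30.7 CPM and then 111 and 95.7 CPM in clone 4.

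Atf3 went the other way. In clone 2 it stood at 17.6 and 12.6 CPM at 0 h and at 371 and 368 CPM at 4 h, a rise larger than in WT by 1.47 (SE 0.173, FDR 1.86e-04). In clone 4 it stood at 25.2 CPM and then at 198 and 216 CPM, near the WT values at 4 h, which were scaled with other TMM factors. Thbs1 started higher in clone 2, at 506 and 559 CPM, and reached 843 and 868 CPM (difference -1.59, SE 0.121, FDR 3.84e-06). Among the genes that fell, Dhrs3 went from 62.7 and 47.4 CPM to 36.3 and 33.96 CPM in clone 2, a smaller fall than in WT by 1.89 (SE 0.170, FDR 1.41e-05), and from 112 to 34.1 and 30.7 CPM in clone 4. Cyp26a1 went from 768 and 632 CPM to 458 and 473 CPM (difference 0.62, SE 0.129, FDR 0.0165), a difference not called without clone 2 replicate 2 at 0 h (FDR 0.175) or either clone 2 library at 4 h (FDR 0.0782 and 0.128). For Cyp26b1 the difference of -0.53 (SE 0.217, FDR 0.256) was not called, except without clone 2 replicate 2 at 0 h (FDR 0.0227), and in the Hox list 0 of 28 genes had a called difference by edgeR (4 at an unadjusted p under 0.05 and 0 by DESeq2). Hoxc4, with the largest fall of the family in WT, had a difference of 1.00 (SE 0.287, FDR 0.0920).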

How the data were processed

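Messenger RNA was sequenced on a NextSeq500 with a KAPA stranded kit, per the labels' protocols. The submitters' processing notes name FastQC 0.11.9, STAR 2.4.0.1, TopHat, Cufflinks, Cuffdiff and DESeq2 and the build GRCm38/mm10. How reads were counted, and with which strand setting, is not given in the sources used here. The values used are raw read counts per gene, deposited by the authors in 1 table per time point. The immunoprecipitation lists are deposited symbols without values.

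Of 51520 lines, 110 with a repeated identifier were dropped, leaving 51410 genes. edgeR 4.0.16 (R 4.3.3) was run on the 8 libraries with TMM factors, filterByExpr and robust quasi-likelihood fits (6 residual degrees of freedom), with Benjamini-Hochberg adjustment over all genes tested and a threshold of 0.05. The SE is the absolute log2 change divided by the square root of F. CPM values use TMM factors over the 16 WT libraries, or over 31 libraries for knockouts. The comparisons with 2 h and 8 h were fitted on the 8 libraries of each pair of times, and the difference between clone 2 and WT as an interaction on 12 libraries. The fits were tested on simulated counts with 200 changed genes. Depth limits the precision of low counts, and replicates carry counting error as well as other spread.

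Set aside were cytosolic ribosomal protein genes (93) and genes whose symbol plus -ps and a number is also in the table (293, 62 of them in both groups). Named by rule were the 12 largest called changes in each direction among genes with a mean of at least 5 CPM and ranges that do not overlap, the 2 largest called changes per list and direction with at least 1 CPM, and a set of reference genes, without predicted genes among the 12. Because 11 of the 12 falls were low at 4 h alone, the 12 largest outside that class were added, 174 reported genes in all. Other list members named were chosen after their values were seen. The members and lists were chosen with earlier results of these data known. Coordinates and promoter windows are RefSeq's for GRCm38.p6. Alternatives were other scalings, no filter, DESeq2 1.42.0, more libraries in the fit, a replicate block and leaving out each library. Knockout clone 4 replicate 1 at 0 h is not analysed here, and some genes that the rule names are not reported here.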

Additional observations from a re-analysis of the deposited data

Results flagged for a closer look

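Single libraries were tested against the other 3 of their group in 348 tests (174 named genes at 0 h and at 4 h). By Dixon's ratio 13 libraries stood apart, fewer than the share of about 1 group in 20 that chance gives. None of them is therefore read as a result about its gene or library. At 4 h, replicate 1 stood apart in Gapdh (19.3 CPM), Wdr86 (3.94 CPM) and the co-chaperone Bag3 (113 CPM), replicate 2 in Ppp1r3b (4.66 CPM), and replicate 4 in Hnrnpa3 (42.8 CPM), the polymerase subunit Pold1 (49.8 CPM), the matrix protein Dcn (10.9 CPM) and Dusp5 (195 CPM). At 0 h, replicate 1 stood apart in the repair factor Ddb2 (3.63 CPM) and Cdk12 (143 CPM), and replicate 2 in the cystine transporter Slc7a11 (4.75 CPM), the respiratory subunit Uqcrq (46.0 CPM) and the trophoblast factor Tead4 (30.2 CPM).

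The change over 4 h differed between clone 2 and WT, by the interaction test of edgeR with adjustment over 14603 genes, in 24 of the 174 named genes. Over all genes tested the share was 2.16%, but the WT libraries enter both the choice of the named genes and this test. The difference (clone 2 minus WT, log2) was below 0 in 18 of the 24 genes. They were Maff (-2.49), Fosb (-1.79), Egr3 (-1.49), Egr1 (-1.44), Sgk1 (-1.60), Dusp5 (-1.27), Dusp4 (-0.65), Ptgs2 (-1.70), Plaur (-0.81), the transporter gene Nipal1 (-1.74), Bdnf (-1.85), Id4 (-1.74), Kdr (-1.71), Thbs1 (-1.59), Timp3 (-1.12), the actin regulator Mical2 (-0.70) the filament gene Vim (-0.66) and the isomerase gene Ppia (-0.48), the last of which was low at 4 h alone. It was above 0 in 6 genes, Gata5 (2.49), Dhrs3 (1.89), Atf3 (1.47), Caprin1 itself (0.69), Cyp26a1 (0.62) and Hspa8 (0.57), the last of which was low at 4 h alone. The calls of 10 of the 24 were lost in at least 1 run without a library: Caprin1, Cyp26a1, Dusp4, Egr3, Fosb, Gata5, Hspa8, Nipal1, Ppia and Vim. The difference in Caprin1 was not called when any one of the 4 clone 2 libraries was left out. That in Gata5, which stood at 0.554 and 0.595 CPM in clone 2 at 0 h, was not called in 8 such runs (FDR 0.0731 to 0.338).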

How the results depend on the processing

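Of 2782 refits of the 174 named genes from 0 h to 4 h, 2721 kept direction and side of the threshold, 42 lost the call, 2 gained it and 17 changed sign, all 17 in 3 uncalled genes near 0. Mcl1 changed to -0.0988 with library totals, -0.00178 with the set-aside genes removed first, -0.00690 with all libraries, -0.0367 without a filter and -0.00295 with 16 WT libraries, and ran from -0.0348 to 0.0328 without single libraries. Polr2a changed to -0.0927 with library totals, -0.00292 with all libraries and -0.0316 without a filter, and ran from -0.0481 to 0.0541 without single libraries. Hexim1 ran from -0.0722 to 0.00866 without single libraries. The 2 gains were Caprin1 (0.14 with all libraries) and G3bp1 (-0.18 with library totals). Leaving out 1 library gave 4918 to 5887 called genes, 2514 to 2964 higher, 2403 to 3025 lower, 441 to 513 higher and 608 to 687 lower by at least 2-fold, 2640 to 3287 called between 2 h and 4 h, 6686 to 7533 between 4 h and 8 h, and 114 to 621 for the difference between clone 2 and WT, where an arm left with 1 library is assumed to vary like the others. Genes higher by at least 2-fold numbered 692 with all libraries and 801 without a filter, and genes lower 1093 without a filter; the clone 2 differences numbered 523 by DESeq2 and 1002 with all libraries, and the cause was not tested. Library totals gave 2131 higher and 4116 lower. Same-numbered libraries at 0 h and 4 h did not all deviate together (r of 0.130, 0.255, -0.137 and 0.503), nor did each match its own number best. The best matches of numbers 1 to 4 were 1, 1, 4 and 4, within the pairs that stood apart at 0 h, and this was not tested further. With the replicate number as a block 6562 genes were called, 3296 higher and 3266 lower, with every named call kept. Depth, lowest at 3460172 counts, limits the genes of a few CPM.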
